A study of Mus musculus with 12 samples.

Results

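Cyclic nucleotide phosphodiesterases were examined in hippocampal RNA from 12 mice. The group, chosen by symbol with earlier results of these data known, holds the brain-expressed genes Pde1a, Pde1b, Pde2a, Pde4a, Pde4b, Pde4d, Pde7b, Pde8b, Pde9a and Pde10a. These 10 symbols corresponded to 11 of the 37991 gene IDs counted, because Pde4d carries a second ID, and all 11 were among the 16399 genes that passed the expression filter of edgeR. The mice were C57BL/6N siblings of 6 to 7 months from matings of heterozygotes, of which 6 are labelled Wildtype and 6 Gadd45a-KO. In the knockout, which affects the whole body, the first 3 exons of Gadd45a are replaced by a neomycin cassette driven by the PGK promoter and exon 4 remains, according to the methods of the study. Every mouse went through the passive avoidance (PA) test, a task in which a mouse learns to avoid a dark compartment where it received a foot shock, and the hippocampi were taken 1 h later. The values therefore compare genotypes after training, and hippocampi without training were not analysed here.

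Cyclic AMP and cyclic GMP are second messengers made by adenylyl and guanylyl cyclases and removed by phosphodiesterases, which cut them to the inactive monophosphates. Because these enzymes are the main route of removal, they set how long protein kinase A, protein kinase G and the Epac exchange factors stay active after a stimulus. In hippocampal neurons cyclic AMP signalling is known for its part in late long-term potentiation and memory consolidation, and the families differ in which nucleotide they cut and in what controls them.

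Between 44594261 and 55540601 reads per library fell on genes, and the totals did not differ detectably between the labels (two-sided exact permutation test, p = 0.450). The targeted gene went against the label: Gadd45a had 2.58 ± 0.481 CPM (reads of a gene per 1000000 reads of its library, after scaling by edgeR's trimmed mean of M-values, TMM) in the libraries labelled Wildtype. With the label Gadd45a-KO it had 21.4 ± 1.07 CPM (SD, n = 6 each), and the log2 fold change was 3.06. Counts per gene do not separate exon 4 from the replaced exons. Directions below are therefore given by label, with reads on Gadd45a higher in the libraries labelled Gadd45a-KO. The summed CPM of 8 hippocampal markers was 1359 to 1460 in the libraries labelled Wildtype and 1106 to 1389 in those labelled Gadd45a-KO. One of these markers (Zbtb20) was lower at a false discovery rate (FDR) of 1%, and of its gene IDs 1 had no read in any library. Replicates 2 and 3 labelled Gadd45a-KO stood apart, with summed thalamic markers of 354 and 518 CPM against 115 to 168 CPM in the other 10 libraries, and replicate 3 also had 7348 CPM of oligodendrocyte markers against 2328 to 3755 CPM elsewhere. Replicate 2 had 11.01 CPM of habenular markers against 1.08 to 2.12 CPM in the others. Subsets of the hippocampal markers, chosen after the data had been seen, varied in further libraries. In replicates 1 to 6 labelled Gadd45a-KO, dentate markers (Prox1, Dsp and C1ql2) summed to 370, 333, 257, 177, 344 and 320 CPM. CA1 markers (Wfs1 and Fibcd1) summed to 341, 219, 205, 416, 188 and 307 CPM. The libraries labelled Wildtype had 279 to 410 CPM and 292 to 364 CPM. In the striatal, cortical, choroid plexus, astrocyte, microglial and vascular lists no gene passed 1% FDR and the summed levels of the labels overlapped. Reads that fell on no gene made up 14.4% to 15.8% of reads in the libraries labelled Wildtype and 13.03% to 14.3% in those labelled Gadd45a-KO, without overlap (exact permutation p = 0.00216, the smallest that 6 against 6 allow). The labels name no sequencing batch.

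None of the 11 gene IDs passed 1% FDR between the labels (quasi-likelihood test of edgeR, adjusted by Benjamini-Hochberg over all tested genes), and DESeq2 also called 0. At this threshold 2.62% of all tested genes were lower with the label Gadd45a-KO and 0.0244% higher, and at such rates a count of 0 among 11 does not set the members apart. At an unadjusted p under 0.05, 3 of the 11 were found (Pde10a, Pde4b and the second ID of Pde4d), against 13.7% of all tested genes. The fitted log2 fold changes lay between -0.11 and 0.21, with a median of -0.04 against 0.00 over all tested genes, and 7 were negative and 4 positive. No member had labels that did not overlap in CPM, a separation found in 3.31% of all tested genes. The intervals state what the libraries could have missed: over the 11 IDs the 95% limits ran from 0.792-fold for Pde1a to 1.27-fold for the second ID of Pde4d. In whole tissue, fewer cells of a type and less RNA per cell cannot be told apart, and a change in some cells can be diluted by the others.

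**Figure D1:**
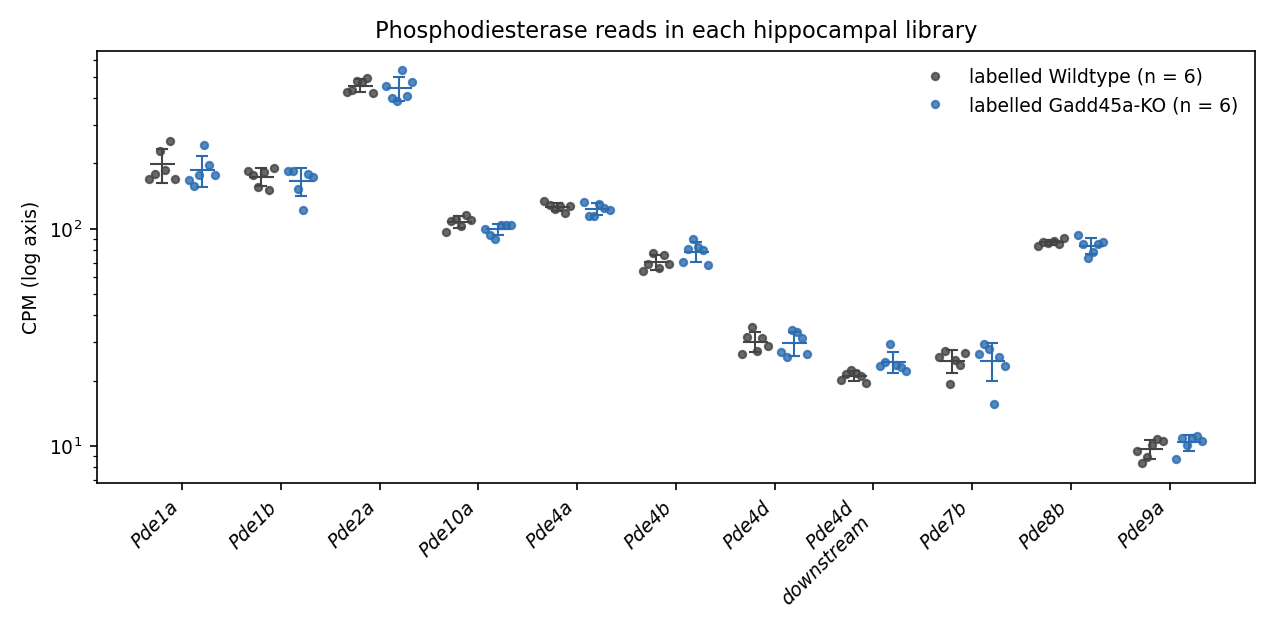
CPM (log axis) of the 11 phosphodiesterase gene IDs in each library, with libraries labelled Wildtype in grey and Gadd45a-KO in blue and bars for the mean ± SD of 6. The labels overlap for every ID, and the second ID of Pde4d comes closest to separation, with 5 of 6 blue points above all grey points.

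The enzymes that cut both nucleotides are described first. Pde1a and Pde1b encode the phosphodiesterases that calcium and calmodulin switch on, which lets a calcium signal shorten a cyclic nucleotide signal. Pde1a (ENSMUSG00000059173, chr2:79674610-79969632 of NCBIM37, minus strand) had 169.5, 183 and 254 CPM as the lowest, median and highest value in the libraries labelled Wildtype, and 158, 177 and 243 CPM in those labelled Gadd45a-KO. Its spread was wide, with a coefficient of variation of 17.8% and 16.5%, and the log2 fold change of -0.08 (95% interval -0.34 to 0.17, adjusted p = 0.848 in edgeR) lay within it. Replicates 3 and 5 labelled Wildtype and replicate 4 labelled Gadd45a-KO were the 3 highest libraries.

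Pde1b (ENSMUSG00000022489, chr15:103333465-103360483, plus strand) had 152, 180.3 and 190.2 CPM in the libraries labelled Wildtype and 123, 176 and 185 CPM in those labelled Gadd45a-KO. The library that was highest of its label for Pde1a was here the lowest, replicate 5 labelled Wildtype and replicate 4 labelled Gadd45a-KO. For Pde1b the log2 fold change was -0.06 (95% interval -0.26 to 0.14, adjusted p = 0.859 in edgeR), and its sign rested on replicate 4 labelled Gadd45a-KO, without which it was 0.02.

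Pde2a, whose enzyme is stimulated by cyclic GMP and so couples a rise of that nucleotide to the removal of cyclic AMP, had the most reads of the group, 18177 to 26367 per library. The gene (ENSMUSG00000030653) lies at chr7:108570212-108661340 on the plus strand. Its values were 422, 456 and 494 CPM in the libraries labelled Wildtype and 389, 433 and 536 CPM in those labelled Gadd45a-KO. The lowest pair among all libraries were replicates 2 and 3 labelled Gadd45a-KO, those with the high thalamic markers, and the highest was replicate 4 of the same label. The log2 fold change of Pde2a of -0.04 (95% interval -0.20 to 0.12, adjusted p = 0.905 in edgeR) was 0.04 without replicates 2 and 3, a setting chosen after the data had been seen.

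Pde10a encodes a further enzyme for both nucleotides, best known from the medium spiny neurons of the striatum. It lies at chr17:8718237-9179513 on the plus strand (ENSMUSG00000023868). The libraries labelled Wildtype had 96.7, 109 and 116 CPM and those labelled Gadd45a-KO 89.9, 102 and 105 CPM. Each of the 6 values under the Gadd45a-KO label was below the Wildtype mean, but only 2 lay outside the Wildtype range. On the log2 scale the difference was -0.11 (95% interval -0.22 to -0.01), with an unadjusted p of 0.0403, an adjusted p of 0.331 in edgeR and a two-sided exact permutation p of 0.0628, so that it did not pass. The 2 libraries outside the range were again replicates 2 and 3, and striatal markers did not separate the labels, with 23.7 to 30.0 summed CPM against 23.1 to 27.8 CPM. Without replicates 2 and 3 the log2 fold change was -0.06, and with an offset for exonic length it was -0.0030. The relation of Pde10a to the thalamic markers is given with the other marker relations.

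The cyclic AMP-specific family that rolipram inhibits follows. Pde4a (ENSMUSG00000032177, chr9:20970158-21017692, plus strand) was among the most even members, at 127 ± 5.25 CPM in the libraries labelled Wildtype and 123 ± 7.63 CPM in those labelled Gadd45a-KO (SD, n = 6). Its lowest, median and highest values were 119, 127 and 135 CPM against 114, 124 and 133 CPM. The difference was -0.04 on the log2 scale with a 95% interval from -0.13 to 0.05, among the narrowest of the group (adjusted p = 0.793 in edgeR).

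Pde4b encodes the paralogue best known for its role in inflammatory signalling and for its induction by cyclic AMP itself. The gene (ENSMUSG00000028525) lies at chr4:101760148-102279864 on the plus strand. It had 64.0, 69.0 and 77.8 CPM in the libraries labelled Wildtype and 68.4, 80.2 and 90.3 CPM in those labelled Gadd45a-KO. In 4 of the 6 libraries labelled Gadd45a-KO it exceeded the whole range of the others. The log2 fold change was 0.16 (95% interval 0.02 to 0.31, unadjusted p = 0.0289, adjusted p = 0.281 in edgeR, two-sided exact permutation p = 0.0628). It passed under 1 of 21 alternatives, an offset for exonic length together with the replicate number as a block (0.24, adjusted p = 0.00412 in edgeR). Without replicates 2 and 3 labelled Gadd45a-KO it was 0.10 (adjusted p = 0.883 in edgeR). The highest value was that of replicate 3, in which oligodendrocyte markers were also highest, although over the 12 deviations from the label means Pde4b and these markers were only loosely related (r = 0.457, adjusted permutation p = 0.523, r = -0.407 without the 2 farthest libraries). Hippocampal and microglial markers were more closely opposed to Pde4b, as given with the other marker relations.

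Pde4d is the member of this family most often linked to memory, and it was counted under 2 gene IDs. The main ID (ENSMUSG00000021699, chr13:109240142-110743669, plus strand) holds 19 annotated transcripts. The second ID (ENSMUSG00000074661, chr13:110744317-110746171, also plus strand) carries the same symbol in the annotation and begins after a gap of 647 bases, with 1 transcript of 1855 bases. The last 30 bases of each are shown, since they differ in whether they hold AATAAA, the usual signal for cleavage and polyadenylation (in capitals). They were read from the NCBIM37 genome at chr13:110743640-110743669 and chr13:110746142-110746171 on the plus strand.
Pde4d main ID, end: aggaaacgtttaagaaaagtcctaagtctg
Pde4d second ID, end: tgaaAATAAAagcatgggttgattctgcct
Neither AATAAA nor the variant ATTAAA occurs in the last 50 bases of the main ID, whereas AATAAA starts 26 bases before the end of the second one. Over its whole length the second ID holds 2 AATAAA and 1 ATTAAA, and 1 more AATAAA lies in the gap. A match is a description of the sequence and does not show where transcripts end.

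Both Pde4d IDs were compared between the labels. The main ID had 26.6, 30.2 and 35.4 CPM in the libraries labelled Wildtype and 25.8, 29.2 and 34.3 CPM under the Gadd45a-KO label, for a log2 fold change of -0.02 (95% interval -0.21 to 0.16, adjusted p = 0.948 in edgeR). The second ID had 19.5, 21.3 and 22.4 CPM against 22.2, 23.5 and 29.5 CPM. All 6 libraries labelled Gadd45a-KO were above the mean of the others and 5 above their highest value. The log2 fold change was 0.21 (95% interval 0.08 to 0.35), with an unadjusted p of 0.00442, an adjusted p of 0.0830 in edgeR and a two-sided exact permutation p of 0.00433. At 1% and at 5% FDR it did not pass, and over 21 alternatives its adjusted p in edgeR or DESeq2 ranged from 0.0203 with the replicate block to 0.237 without replicates 2 and 3 labelled Gadd45a-KO, where the log2 fold change was 0.13.

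The reads of the second ID per read of the main ID were then compared, a measure chosen after these values had been seen. It does not depend on the scaling between libraries, since both counts come from the same library. It can depend on how coverage falls away from the 3′ end in poly(A) libraries, because the second ID lies downstream. For Grin2a and some other transcripts the study reported that this fall differed between the genotypes. Whether it enters the ratio was not tested. The ratio was 0.633 to 0.789 in the libraries labelled Wildtype and 0.702 to 0.950 in those labelled Gadd45a-KO, and 4 of the latter exceeded all of the former. On the log2 scale the means were -0.52 ± 0.12 and -0.28 ± 0.16 (SD, n = 6), a difference of 0.24. It was 0.19 to 0.28 with 1 library left out and 0.16 without replicates 2 and 3 labelled Gadd45a-KO. Since the ratio restates what prompted it, these values are a description and no p is given.

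**Figure D2:**
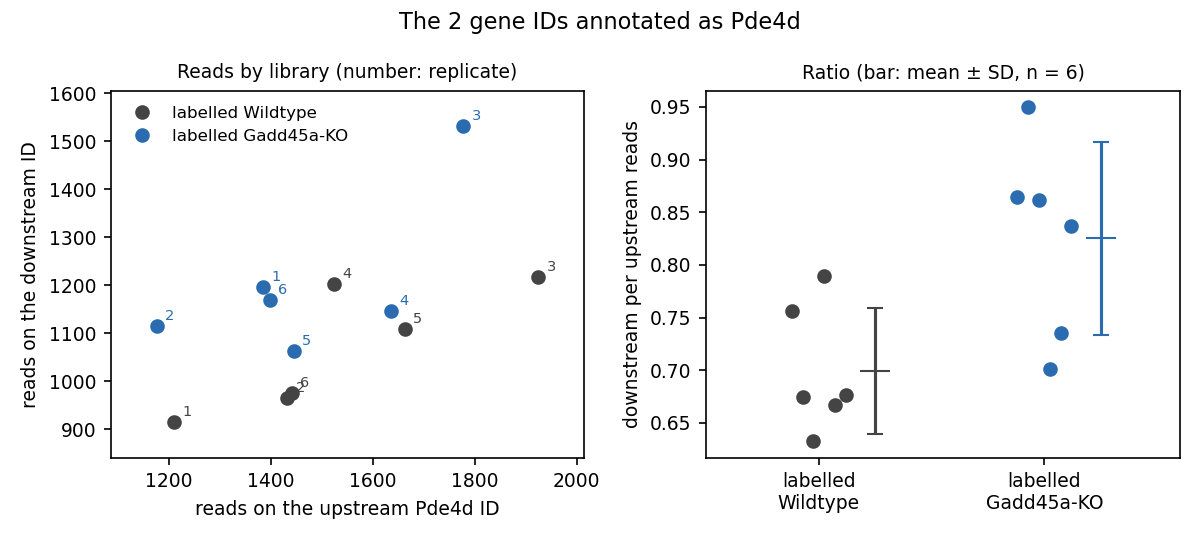
Left, reads of the second (downstream) Pde4d ID against reads of the main (upstream) ID in each library, numbered by replicate; right, their ratio, with bars for mean ± SD of 6 libraries. Axes do not start at 0; the ratio is 0.633 to 0.789 in libraries labelled Wildtype and 0.702 to 0.950 in those labelled Gadd45a-KO.

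Pde7b and Pde8b encode further enzymes specific for cyclic AMP, which differ from the Pde4 family in not being blocked by rolipram. Pde7b (ENSMUSG00000019990, chr10:20117810-20444884, minus strand) had 19.4, 25.3 and 27.4 CPM in the libraries labelled Wildtype and 15.7, 26.1 and 29.5 CPM in those labelled Gadd45a-KO. Replicate 4 labelled Gadd45a-KO gave the lowest and replicate 2 the highest value of all libraries. For Pde7b the log2 fold change was 0.01 (95% interval -0.26 to 0.28, adjusted p = 0.989 in edgeR), with a sign that changed with single libraries.

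Pde8b (ENSMUSG00000021684, chr13:95794409-96020291, minus strand) had 83.5, 86.7 and 90.9 CPM in the libraries labelled Wildtype, the least variable set of values in the group with a coefficient of variation of 2.98%. In those labelled Gadd45a-KO the values were 73.5, 85.1 and 93.5 CPM, with a coefficient of variation of 8.39%. The lowest was replicate 3. The log2 fold change was -0.05 (95% interval -0.16 to 0.05, adjusted p = 0.754 in edgeR).

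Pde9a encodes the cyclic GMP-specific enzyme of highest affinity and stood alone as a cyclic GMP-specific member. It lies at chr17:31523179-31613255 on the plus strand (ENSMUSG00000041119) and had the fewest reads, 374 to 570 per library. The values were 8.32, 9.82 and 10.8 CPM in the libraries labelled Wildtype and 8.77, 10.7 and 11.2 CPM in those labelled Gadd45a-KO. The fitted difference was 0.10 on the log2 scale (95% interval -0.07 to 0.26, adjusted p = 0.669 in edgeR), and 5 of 6 libraries labelled Gadd45a-KO exceeded the mean of the others.

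**Figure D3:**
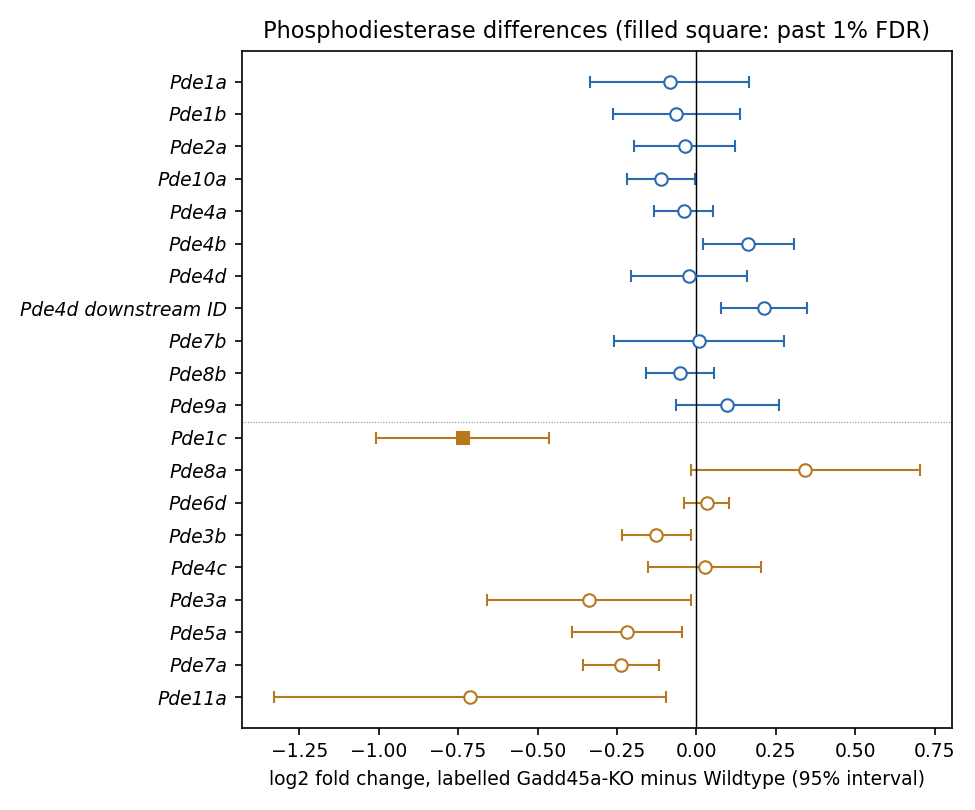
Log2 fold change (labelled Gadd45a-KO minus Wildtype) with its 95% interval for the 11 member IDs (blue, above the dotted line) and the 9 further phosphodiesterase genes with at least 1 CPM on average (brown). Only Pde1c, at -0.74, is past 1% FDR (filled square).

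To set the members in order, levels were computed per length, as reads per kilobase of annotated exon and library total scaled by TMM (RPKM), over all 12 libraries. Pde2a had the highest level at 96.9 ± 9.39 RPKM (SD, n = 12), followed by Pde1b at 39.8 ± 4.73 RPKM and Pde1a at 31.9 ± 5.31 RPKM. Pde4a (16.3 RPKM), Pde8b (14.5 RPKM) and the second Pde4d ID (12.2 RPKM) formed the next step. Pde10a (8.21 RPKM) and Pde4b (7.05 RPKM) came below them, and Pde9a (3.55 RPKM), Pde7b (3.42 RPKM) and the main Pde4d ID (2.50 RPKM) were lowest. The ranges over libraries did not overlap between Pde2a and Pde1b, between Pde1a and Pde4a, between the second Pde4d ID and Pde10a, and between Pde4b and Pde9a. All other neighbours in this order overlapped and are not set apart by these libraries. Pde2a alone made up 43.1% ± 1.35 of the summed RPKM of the 10 genes in the libraries labelled Wildtype and 43.2% ± 3.03 in those labelled Gadd45a-KO (SD, n = 6 each). In these sums Pde4d entered by its main ID only, and the second ID was left out. The level of the main Pde4d ID is divided by 12006 bases, the union of exons of 19 transcripts, and is therefore lowered where only some of those exons are used. The same holds for other members, to unlike degrees. The union was 10560 bases for Pde4b, 12598 for Pde10a and 7655 for Pde4a, with longest transcripts of 4304, 7717 and 4653 bases. For Pde2a and Pde1b it was 4647 and 4267 bases, with longest transcripts of 4210 and 4215. The order, the gaps and the share of Pde2a therefore depend on this choice of length, and no other length was tried. The longest annotated 3′UTR ran from 1163 bases for Pde2a to 4992 bases for Pde10a.

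**Figure D4:**
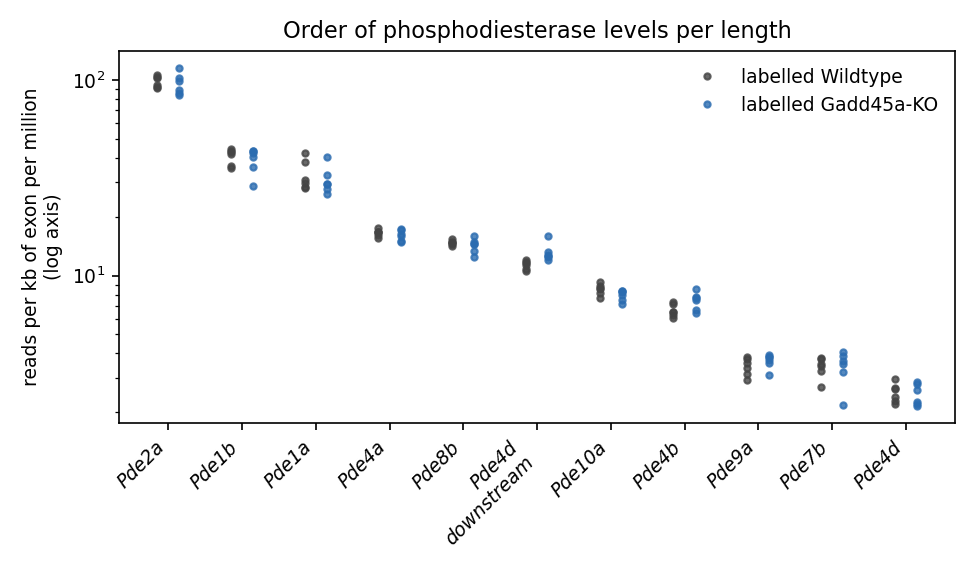
Level per length (RPKM, log axis) of each member ID in the libraries labelled Wildtype (grey) and Gadd45a-KO (blue), ordered by the mean over all 12. Pde2a stands above all others, and gaps follow Pde1a, the second Pde4d ID and Pde4b.

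The members were then compared with each other through their deviations from the mean of each label, which leaves out the difference between labels. Of the 55 pairs, 26 correlations were positive and 29 negative. By Pearson's r no pair passed an adjusted p of 0.05. The most opposed pairs were Pde1a with Pde1b (r = -0.853, rho = -0.846, permutation p = 0.00260 and 0.00124, adjusted 0.0683 and 0.0341 over 55 pairs) and Pde2a with Pde7b (r = -0.853, rho = -0.888, permutation p = 0.00108 and 0.000890, adjusted 0.0594 and 0.0341). Without the 2 libraries farthest from the median of Pde1a or of Pde2a, r was -0.645 for the first and -0.703 for the second pair. Pde4b and the main Pde4d ID deviated together (r = 0.800, rho = 0.692, permutation p = 0.00483 and 0.0266, adjusted 0.0683 and 0.226).

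The same deviations were set against marker genes of hippocampal subregions, neighbouring regions and other cell types, 132 relations in all. Where r is given without the 2 farthest libraries, here and above, these are the 2 whose marker mean lay farthest from its median. Leaving them out narrows the range of the markers, which can itself lower r. The split of the hippocampal markers into dentate and CA1 genes was made after the data had been seen. Relations to these split lists are therefore a description, and no p is given for them. Pde1b followed the dentate granule cell markers Prox1, Dsp and C1ql2 most closely, with r = 0.950 and rho = 0.825. The relation held within each label (r = 0.877 and 0.990, n = 6 each), and r was 0.867 without the 2 libraries farthest out. Pde1a ran the other way, with r = -0.855 and rho = -0.853, and r was -0.657 without the 2 farthest libraries. With all 8 hippocampal markers r was 0.596 for Pde1b and -0.534 for Pde1a (adjusted permutation p = 0.338 and 0.313). Replicate 4 labelled Gadd45a-KO, the library with the lowest Pde1b and Pde7b and the highest Pde2a, also had the lowest dentate sum, 177 CPM. The others of that label had 257 to 370 CPM and the libraries labelled Wildtype 279 to 410 CPM.

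Pde2a followed the CA1 markers, which were only the 2 genes Wfs1 and Fibcd1 (r = 0.883, rho = 0.825), with r = 0.836 without the 2 libraries farthest out. With all 8 hippocampal markers r was 0.021 for Pde2a. Among the libraries labelled Wildtype that r was -0.891, and among those labelled Gadd45a-KO it was 0.243. Pde7b passed by Pearson's r with the 3 cortical markers Rorb, Rspo1 and Scnn1a (r = 0.903, rho = 0.832, permutation p = 0.000130 and 0.00212, adjusted 0.0172 and 0.0700 over 132 relations), and r was 0.756 without the 2 farthest libraries. It also passed with the striatal markers (r = 0.777, rho = 0.685, permutation p = 0.00109 and 0.0129, adjusted 0.0389 and 0.189). There r was weaker, at 0.491, without the 2 farthest libraries, and 0.877 and 0.901 within the labels Wildtype and Gadd45a-KO. Pde1a was opposed to the cortical markers (r = -0.879, rho = -0.811, permutation p = 0.00118 and 0.00435, adjusted 0.0389 and 0.0970), with r = -0.765 without the 2 farthest. By rank correlation no relation had an adjusted p under 0.05. Pde10a was opposed to the thalamic markers (r = -0.768, rho = -0.762, permutation p = 0.00297 and 0.00156, adjusted 0.0560 and 0.0700), with r = -0.969 among the libraries labelled Gadd45a-KO, r = -0.611 among those labelled Wildtype and r = -0.611 without the 2 farthest. Pde4b was opposed to the hippocampal markers (r = -0.799, rho = -0.825, permutation p = 0.00525 and 0.00441, adjusted 0.0770 and 0.0970), with r = -0.714 without the 2 farthest, and to the microglial markers (r = -0.712, rho = -0.685, permutation p = 0.0199 and 0.0282, adjusted 0.139 and 0.238), with r = -0.418 without the 2 farthest. Neither relation of Pde4b passed.

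The second Pde4d ID went with the choroid plexus markers (r = 0.776, rho = 0.664, permutation p = 0.00354 and 0.0273, adjusted 0.0584 and 0.238), and r was 0.640 without the 2 farthest libraries. With the oligodendrocyte markers r was 0.836 and rho 0.573 (permutation p = 0.0275 and 0.0573, adjusted 0.165 and 0.291), with r = 0.921 among the libraries labelled Gadd45a-KO and 0.520 among those labelled Wildtype. With the thalamic markers r was 0.679 and rho 0.497 (permutation p = 0.0431 and 0.117, adjusted 0.225 and 0.386). Without the 2 farthest libraries r was 0.242 and 0.239, so that these 2 relations were weaker without them. With the thalamic markers r was -0.652 among the libraries labelled Wildtype and 0.870 among those labelled Gadd45a-KO. None of the 3 passed. All points share a dissection and a library with their marker values, and what produced the relations was not tested.

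**Figure D5:**
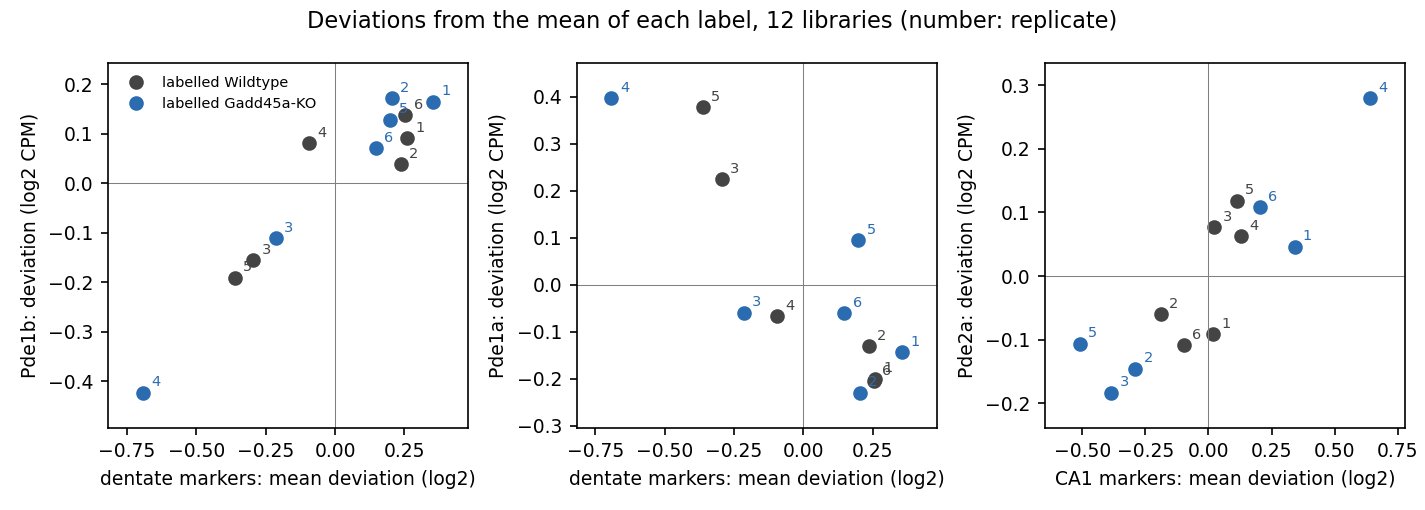
Deviation of Pde1b, Pde1a and Pde2a from the mean of each label (log2 CPM) against the mean deviation of dentate or CA1 markers, with 12 libraries numbered by replicate. Pde1b rises with the dentate markers (r = 0.950), Pde1a runs against them (r = -0.855) and Pde2a rises with the CA1 markers (r = 0.883), with replicate 4 labelled Gadd45a-KO at an extreme in each panel.

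The genes most like each member were searched among 13865 genes by the same deviations over 12 libraries, as a description. For Pde1b these were Gm17566 (r = 0.991) and Tiam2 (r = 0.969), for Pde1a Dyrk2 (r = 0.964) and Odz4 (r = 0.947), and for Pde2a Fam189a1 (r = 0.976) and Mst1r (r = 0.965). Pde10a was most like Fam171b (r = 0.965) and Gria2 (r = 0.954), which encodes an AMPA receptor subunit. Pde9a was most like Dcx (r = 0.947), a gene of immature neurons, and Cyp2j9 (r = 0.930). The main Pde4d ID was most like Kif1b (r = 0.967) and Asb1 (r = 0.952), and the second ID Tmprss5 (r = 0.953) and Pppde2 (r = 0.948). The leading genes were Solh and Dtx3 for Pde4a, Kif9 and Tmem56 for Pde4b, Rdh10 and Sri for Pde7b, and Snhg5 and Chst15 for Pde8b, with r from 0.926 to 0.954. With so many genes searched over so few libraries, high values arise in number, and no p is given.

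The rest of the phosphodiesterase family was examined for comparison. Of 14 further genes 12 were tested, 1 was lower and 0 higher at 1% FDR, and the median log2 fold change was -0.17. Over all tested genes 2.62% were lower and 0.0244% higher. These genes too were chosen with earlier results of these data known, so their count is not read as a result about the family. Pde1c, the third calmodulin-dependent gene, had 4.16, 5.20 and 5.71 CPM in the libraries labelled Wildtype and 2.46, 2.82 and 4.34 CPM in those labelled Gadd45a-KO. Of the latter 5 were below the range of the former, in libraries in which reads on Gadd45a were higher. Its log2 fold change was -0.74 (95% interval -1.01 to -0.46, adjusted p = 0.00286 in edgeR). It passed in 20 of 21 alternatives, the exception being the fit without replicate 1 labelled Gadd45a-KO (adjusted p = 0.0109). Pde1c lies on chromosome 6, as Gadd45a does, 10.7 Mb from it. Pde3a, given below, lies on the same chromosome. Whether position bears on either level was not tested.

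Pde7a, the paralogue of Pde7b, had 38.3, 39.9 and 47.5 CPM against 31.6, 35.0 and 37.5 CPM, without overlap. Its log2 fold change was -0.24 (95% interval -0.36 to -0.12, adjusted p = 0.0209 in edgeR). It therefore passed at 5% FDR, as 4.55% of all tested genes did, but not at 1%. In DESeq2, which called 3.88% of its genes at 1% FDR, it passed (adjusted p = 0.00283). For the dual-substrate Pde11a the log2 fold change was -0.71 with wide limits (-1.33 to -0.10, adjusted p = 0.266). The cyclic GMP-specific Pde5a had -0.22 (adjusted p = 0.203), and the cyclic GMP-inhibited Pde3a and Pde3b had -0.34 and -0.13 (adjusted p = 0.329 and 0.262). Pde8a had 0.34 (adjusted p = 0.404), Pde4c 0.03 (adjusted p = 0.945) and Pde6d, which encodes a prenyl-binding chaperone, 0.03 (adjusted p = 0.774, all in edgeR).

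Genes that make, sense or anchor the cyclic nucleotides were taken from a list of 43, of which 42 were tested. At 1% FDR 2 were lower and 0 higher, and the median log2 fold change was 0.01. Of all tested genes 2.62% were lower and 0.0244% higher. The list was chosen with earlier results of these data known, so its count is not read as a result about the pathway. Akap6, a further anchor of protein kinase A, named here after its values were seen, had -0.27 (adjusted p = 0.0281 in edgeR) and brought the count to 3 at 5% FDR, in DESeq2 and with the replicate block. None of 15 genes of synthesis (cyclases, natriuretic peptide receptors and neuronal nitric oxide synthase) passed, 1 of 13 effectors and 1 of 14 anchors and partners did. The effector was Prkg1, a cyclic GMP-dependent protein kinase, with 4.36 to 5.16 CPM in the libraries labelled Wildtype and 1.63 to 2.51 CPM under the Gadd45a-KO label. Its difference of -1.21 on the log2 scale (95% interval -1.42 to -1.002, adjusted p = 3.9e-06 in edgeR) passed under all 21 alternatives. The anchor was Akap11, which holds protein kinase A near its targets, with 271 to 320.3 CPM against 242 to 257 CPM and a log2 fold change of -0.28 (95% interval -0.36 to -0.19, adjusted p = 0.000918 in edgeR). For neither gene did the labels overlap, and both were lower where reads on Gadd45a were higher.

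Because several phosphodiesterase genes are known to answer cyclic AMP through the CREB transcription factor, the RefSeq promoters of the members (250 bases before to 50 after each start, build GRCm38.p6, which is not the build of the counts) were searched on both strands. Entries were found for 9 of the 10 genes, 28 promoters in all. The full CREB motif TGACGTCA occurred in 0 of 28, and in 1.79% of all 32851 promoters. Its shorter form TGACG, or CGTCA on the other strand, occurred in 5 of 28 (17.9%), 1 each of Pde1a, Pde2a, Pde4a, Pde4b and Pde8b, against 20.8% of all promoters, so that the members did not stand out by it. The matches in the 2 Pde4 genes are shown with the motif in capitals.
Pde4a, 50 bases before the start, chr9:21184039-21184067, plus strand: ggcacagctcgaCGTCAggctggggagga
Pde4b, 34 bases before the start, chr4:102421509-102421537, plus strand: gatttggctgcaCGTCAattttctcatct
These matches are letters in a sequence, and no binding was measured.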

How the data were processed

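The authors made TruSeq stranded libraries from poly(A) RNA of 12 hippocampi, aligned the reads to NCBIM37/mm9 with TopHat 1.4.1, counted reads per Ensembl gene by strand with HTSeq 0.5.4p3 and deposited unnormalized read counts, 1 file per library. The submitters' notes also name SAMtools and DESeq 1.16.0. Labels gave groups and replicate numbers; siblings were separate animals.

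Symbols and exons came from an Ensembl annotation of the same build but another release (37205 of 37991 IDs matched). Counts were filtered, TMM-scaled and compared with the quasi-likelihood test of edgeR 4.0.16 (R 4.3.3), 6 against 6, without covariates, at 1% FDR as in the study. Log2 CPM used a prior count of 2. DESeq2 1.42.0, other scalings and filters, an exonic length offset (spline, 5 degrees of freedom), the replicate block and leaving out libraries were alternatives. Exact permutation tests and 100000-resample permutations within labels for correlations used scipy 1.17.1 under Python 3.11.15; figures used matplotlib 3.10.9. In simulated data 200 genes were changed by 1 on the log2 scale, more than the fitted change of any member. Of these edgeR recovered 172 for this comparison with 0 others among 16295, and DESeq2 177 with 10 others among 16399. Recovery of changes as small as those fitted for the members was not tested.

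The members and lists were chosen with earlier results of these data known. All members were named, further phosphodiesterases at 1 CPM or more or past 1% FDR, pathway genes past 1% FDR, and the 2 genes most like each member. Pairs of libraries of 1 label differed by more than counting error (chi-square per degree of freedom 9.12 to 40.5 over 30 pairs). Reads with more than one alignment and ambiguous reads were left out of the gene totals by the authors. Coverage along transcripts was not used here.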

Additional observations from a re-analysis of the deposited data

Results flagged for a closer look

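In 48 sets of 6 values, 1 gene or the Pde4d ratio in 1 label each, the highest or lowest value was compared with the nearest other. In 4 of them the gap, as a share of the whole range, exceeded the 95% critical value of Dixon's test, and about 1 in 20 does so by chance, which is 2.4 of 48. The second ID of Pde4d had 29.5 CPM in replicate 3 labelled Gadd45a-KO against 22.2 to 24.5 CPM in the other libraries of that label. Pde8a had 34.0 CPM in the same library against 15.6 to 19.3 CPM in the others. This is the library with the highest oligodendrocyte and thalamic marker sums. The second Pde4d ID correlated with these marker lists at r = 0.836 and 0.679 over 12 libraries and at 0.242 and 0.239 without the 2 farthest, while no such relation was computed for Pde8a. Pde5a had 9.37 CPM in replicate 1 labelled Wildtype against 11.6 to 12.4 CPM in the others. Pde7a had 47.5 CPM in replicate 6 labelled Wildtype against 38.3 to 41.0 CPM.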

How the results depend on the processing

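The count of members past 1% FDR was 0 in every alternative run except the offset for exonic length with the replicate block, where it was 1 (Pde4b). Further phosphodiesterases past the threshold numbered 1, with 2 in DESeq2 and at 5% FDR and 0 to 1 when a library was left out, and pathway genes 2, with 3 in DESeq2, at 5% FDR and with the replicate block, each adding Akap6, and 1 under the length offset with the block, where Akap11 no longer passed (adjusted p = 0.01001 in edgeR). Over all tested genes the count was 434, with 680 in DESeq2, 746 at 5% FDR, 281 with the length offset, 242 to 470 without 1 library (each single omission lowering it by over 1.5 times was of Wildtype 3, 5 or 6 or Gadd45a-KO 1, 2 or 6) and 202 without Gadd45a-KO replicates 2 and 3, a setting chosen after the data had been seen. That setting gave a Pde4d log2 ratio difference of 0.16. Its reversed signs were 0.043 for Pde2a, 0.010 for Pde4a and -0.11 for Pde7b. The length offset gave 0.0078 for Pde4a and 0.076 for Pde4d, or 0.0067 and 0.074 with the block. Without 1 library the log2 fold changes ran from -0.17 to 0.0083 for Pde1a, -0.091 to 0.018 for Pde1b, -0.090 to 0.0060 for Pde2a, -0.061 to 0.033 for Pde4d, -0.044 to 0.12 for Pde7b and -0.015 to 0.079 for Pde4c. No adjusted p of those genes passed, and the cause of the sign changes was not tested.

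Equal replicate numbers went with weakly shared deviations (mean correlation 0.140, from -0.0761 to 0.262, and -0.0279 between unequal numbers; p = 0.0264, one-sided exact permutation test over 720 pairings), and 5 of 6 pairs were over 0.1. Of the 12 libraries, 4 correlated best with their own number. The numbers were to be taken as pairs only if every pair was over 0.1. The sixth was -0.0761 and no label ties equal numbers to a litter or batch, so the main fit did not use them. These values do not exclude that some libraries were paired. With the replicate block 514 of all tested genes passed (434 without it), 3 pathway genes, 1 further phosphodiesterase and 0 members, and Pde7b was at -0.0080. Adjusted p in edgeR with the block was 0.0659 for Pde4b and 0.0203 for the second Pde4d ID, against 0.281 and 0.0830 without it. Of 563 comparisons of a result with an alternative, 21 single-gene values changed sign. Counts down to 374 reads for Pde9a and 84 for Prkg1 limit the precision of those genes, and the intervals cover the spread between these libraries only.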
